A study of Mus musculus with 35 samples.

Results

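Of 100311 tested genomic tiles of 2 kb, 297 (0.296%) were more accessible at D0, D1 and D2 alike in mouse cells that lack all 3 TET enzymes than in their parental line. A tile was tested when it was a full tile on an autosome other than chromosomes 8 and 14 and its mean log2 RPKM over all 35 libraries was at least -0.5. RPKM is the number of reads scaled to the tile's length and the library's total. The level of a tile is its log2 RPKM minus the median of the tested tiles in the same library, so a level of 0 is that of a typical tested tile. These 297 tiles, the members of the set, were chosen because the mean level in the knockout exceeded that in the parental line by at least 0.8 on each of the 3 days. The differences between these 2 lines are therefore a description and were not tested. The matrix held 1362779 tiles in all, and 172 tested tiles met the same rule in the opposite direction.

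ATAC-seq was used, where a transposase cuts chromatin that is open, with 10000 cells per library. The study used 4 lines of mouse embryonic stem cells kept in 2i/LIF at D0 and sampled as epiblast-like cells (EpiLC) at D1 and D2. TET_KO lacks Tet1, Tet2 and Tet3 and TET_WT is its parent, and DNMT_KO lacks Dnmt1, Dnmt3a and Dnmt3b and DNMT_WT is its parent. Each line had 3 libraries a day, except TET_KO at D2, which had 2. Each genotype was represented by a single named line, and how many clones stand behind it was not given. Nothing in the labels says that libraries of a group came from separate cultures, so p-values measure the spread between these libraries, which may be technical. That spread was 1 estimate per tile shared by all 12 groups, so p-values for the DNMT lines rest in part on the TET libraries. Libraries of 1 group correlated at 0.30 to 0.62 in the DNMT lines and at 0.56 to 0.74 in the TET lines. Whether the deleted exons were gone was not analysed here.

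TET enzymes oxidise the methyl group of methylated cytosine in CpG dinucleotides and so open the way to its removal, while Dnmt3a and Dnmt3b place the mark and Dnmt1 copies it at replication. Loss of the TET enzymes and loss of the DNMT enzymes are thus opposite lesions of one pathway. Naive stem cells in 2i/LIF carry little methylation, and EpiLC gain it as they move towards the formative epiblast. Methylation at CpG-rich promoters is known for keeping a set of germ cell genes silent in these cells.

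The libraries held 4172670 to 23686796 reads in tiles. All D1 libraries held mitochondrial reads (5.62% to 46.8% of reads) and no D0 or D2 library did, which cannot be told apart from the day. Within D1 the share was 5.62% to 19.2% in TET_WT, 8.37% to 35.02% in TET_KO, 9.93% to 28.9% in DNMT_WT and 6.05% to 46.8% in DNMT_KO. Its part in the D1 differences was not tested. A start tile of the pluripotency gene Sox2 had a mean level of 1.14 to 1.74 in the 12 groups, and that of Klf4 one of 1.31 to 2.16. The 2 start tiles of Pou5f1 had 0.30 to 1.17, lowest in TET_KO at D0, and -0.19 to 0.89, lowest in TET_KO at D2. A start tile of the fibroblast gene Col1a2 had -0.60 to 1.08. In TET_KO it had -0.60 at D0 against -0.04 in TET_WT, and 1.08 at D2 against 0.41. That of Twist2, another fibroblast gene, had -0.21 to 0.73, with 0.69 in TET_KO at D2 against 0.58 in TET_WT. The part of these levels in the results was not tested.

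Among the 297 tiles, 21 held the annotated start of a protein-coding gene, for which RefSeq promoter sequence (250 bases before to 50 after the start, GRCm38.p6) could be read. The 23 promoters of these 21 genes had a median of 9 CpG in 300 bases, against 20 over the 12986 promoters in all tested tiles. Over the 32851 promoters of the whole RefSeq table the median was 7. At most 5 CpG were found in 26.1% of the 23 promoters, in 9.90% of those in tested tiles and in 43.6% of the whole table. The 23 promoters ranged from 3 CpG (Aspg) to 45 (Fam184a). The 4 below show a CpG-richer pair (Mael, Rbm46) and a CpG-poorer pair (Gucy1b1, Luzp2). Mael was picked by the rule for named genes and the other 3 after their values were seen. Each is read 5′ to 3′ on the gene's own strand, and capitals mark the CpG dinucleotides.
Mael, chr1:166238695-166238994, minus strand: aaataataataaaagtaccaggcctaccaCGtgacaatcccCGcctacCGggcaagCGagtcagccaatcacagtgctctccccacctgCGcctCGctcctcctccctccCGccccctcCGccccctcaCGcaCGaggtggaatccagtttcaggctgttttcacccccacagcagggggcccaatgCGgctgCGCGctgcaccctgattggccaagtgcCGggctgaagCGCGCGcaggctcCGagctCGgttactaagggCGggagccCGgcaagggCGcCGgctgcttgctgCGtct
Rbm46, chr3:82876434-82876733, minus strand: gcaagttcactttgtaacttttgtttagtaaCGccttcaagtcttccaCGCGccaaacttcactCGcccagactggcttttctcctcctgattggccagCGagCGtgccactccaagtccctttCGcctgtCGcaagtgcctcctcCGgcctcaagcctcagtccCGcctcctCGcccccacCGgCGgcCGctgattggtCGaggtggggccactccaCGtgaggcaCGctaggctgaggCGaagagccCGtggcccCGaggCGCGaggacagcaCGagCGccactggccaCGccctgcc
Gucy1b1, chr3:82074662-82074961, minus strand: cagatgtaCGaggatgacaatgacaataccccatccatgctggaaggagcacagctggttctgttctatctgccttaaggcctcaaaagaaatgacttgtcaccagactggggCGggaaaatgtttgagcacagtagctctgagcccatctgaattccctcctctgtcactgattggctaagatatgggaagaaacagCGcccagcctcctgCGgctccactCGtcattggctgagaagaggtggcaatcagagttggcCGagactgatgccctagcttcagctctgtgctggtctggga
Luzp2, chr7:54834995-54835294, plus strand: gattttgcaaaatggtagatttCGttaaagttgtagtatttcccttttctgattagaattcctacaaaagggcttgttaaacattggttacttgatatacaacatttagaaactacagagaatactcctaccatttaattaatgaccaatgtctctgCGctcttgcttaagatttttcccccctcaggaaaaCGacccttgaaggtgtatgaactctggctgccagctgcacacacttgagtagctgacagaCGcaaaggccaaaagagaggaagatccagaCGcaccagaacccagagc

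These windows held 24 CpG in Mael, 25 in Rbm46, 6 in Gucy1b1 and 5 in Luzp2. Mael acts in the piRNA pathway that silences transposons in germ cells, Rbm46 is an RNA-binding protein needed for meiosis, and Gucy1b1 is the beta subunit of the nitric oxide receptor guanylate cyclase. A search of both strands found CCAAT in 14 of the 23 promoters (60.9%, against 37.1% of those in tested tiles and 37.4% of the whole RefSeq table). CACGTG was found in 4 (17.4% against 9.91% and 7.15%), GGGCGG in 12 (52.2% against 63.7% and 35.7%) and TATAAA in 1 (4.35% against 6.53% and 13.6%). None of these 4 motifs contains another. The matches are letters in a window and no binding was measured.

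At the tile with the start of Mael (chr1:166238001-166240000) the levels in TET_WT were -0.93, -1.17 and 0.32 at D0, and those in TET_KO were 0.30, 1.05 and 1.26. At D2 they were -0.17, 0.58 and 0.47 in TET_WT and 1.30 and 1.51 in TET_KO. The groups were apart at D2 and overlapped at D0 through 1 parental library. DNMT_WT at D0 gave 0.58, 0.70 and 0.51 and DNMT_KO 0.86, 0.64 and 0.93, and at D2 they gave 1.35, 0.70 and 1.17 against 0.81, 0.85 and 1.42. Both DNMT lines thus lay above TET_WT in mean level at each day, and loss of the DNMT enzymes gave no call at Mael (difference at D2 -0.05, SE 0.35, limma adjusted p = 0.995).

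The start tile of Rbm46 (chr3:82876001-82878000) had a TET_KO minus TET_WT difference of 1.03 at D0, 1.25 at D1 and 1.02 at D2. That of Gucy1b1 (chr3:82074001-82076000) had 1.42, 1.25 and 1.33, and that of Luzp2 (chr7:54834001-54836000) had 1.37, 0.99 and 1.73. At Luzp2 the D2 mean level was -0.27 ± 1.16 (SD, n = 3) in TET_WT and 1.46 ± 0.46 (n = 2) in TET_KO. The same tile was at 0.80 ± 0.19 in DNMT_WT and -0.39 ± 0.48 in DNMT_KO at D2 (n = 3 each), a difference of -1.19 (SE 0.54) that limma did not call (adjusted p = 0.684).

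The other start tiles had TET differences of 0.81 to 2.49. The most CpG-rich promoter was that of Fam184a (45 CpG), whose tile (chr10:53750001-53752000) had D2 levels of 0.64, 1.05 and 0.78 in TET_WT, 2.16 and 1.58 in TET_KO, 1.29, 1.32 and 1.17 in DNMT_WT and 0.74, 0.85 and 0.64 in DNMT_KO. At D2 the knockouts thus lay on opposite sides of their parents there, with no overlap in either pair. The largest difference was at Gm10499 (chr17:36144001-36146000), with 2.49, 1.19 and 2.33. The most open start at D2 was that of Alkbh7, a mitochondrial protein, with a mean level of 2.06 in TET_WT and 2.89 in TET_KO. Without the DNMT enzymes, 19 of the 21 start tiles had a lower mean level than in DNMT_WT at D2 (90.5%, against 58.9% of tested start tiles), 5 at D1 (23.8% against 35.6%) and 11 at D0 (52.4% against 51.4%). The median DNMT difference of the 21 was -0.40 at D2, 0.33 at D1 and -0.005 at D0. Over tested start tiles it was -0.09, 0.16 and -0.01. None of the 21 was called by limma.

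Over all 297 tiles, the median difference between TET_KO and TET_WT was 1.11 at D0, 1.16 at D1 and 1.11 at D2, that is 2.16-, 2.24- and 2.16-fold. The tiles were below a typical tested tile in TET_WT and above it in TET_KO. The median level of the tiles averaged -0.76 ± 0.31 (SD over 3 libraries) in TET_WT at D0 and 0.46 ± 0.27 in TET_KO. At D1 it was -0.57 ± 0.38 and 0.69 ± 0.35, and at D2 -0.48 ± 0.37 and 0.75 ± 0.16 (2 TET_KO libraries). The DNMT lines entered the choice of tiles only through the filter on the mean over all 35 libraries. Their levels lay between those of the TET lines. Choosing tiles low in TET_WT and high in TET_KO favours such a place, so nothing is read from it. The values were 0.11 ± 0.19, 0.05 ± 0.24 and 0.05 ± 0.09 in DNMT_WT from D0 to D2 (n = 3 each). In DNMT_KO they were -0.01 ± 0.40, 0.20 ± 0.45 and -0.19 ± 0.17 (n = 3 each). The plot of levels by library shows that single libraries differed widely, with DNMT_KO at D0 spanning -0.46 to 0.29 and at D1 -0.22 to 0.68.

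**Figure D1:**
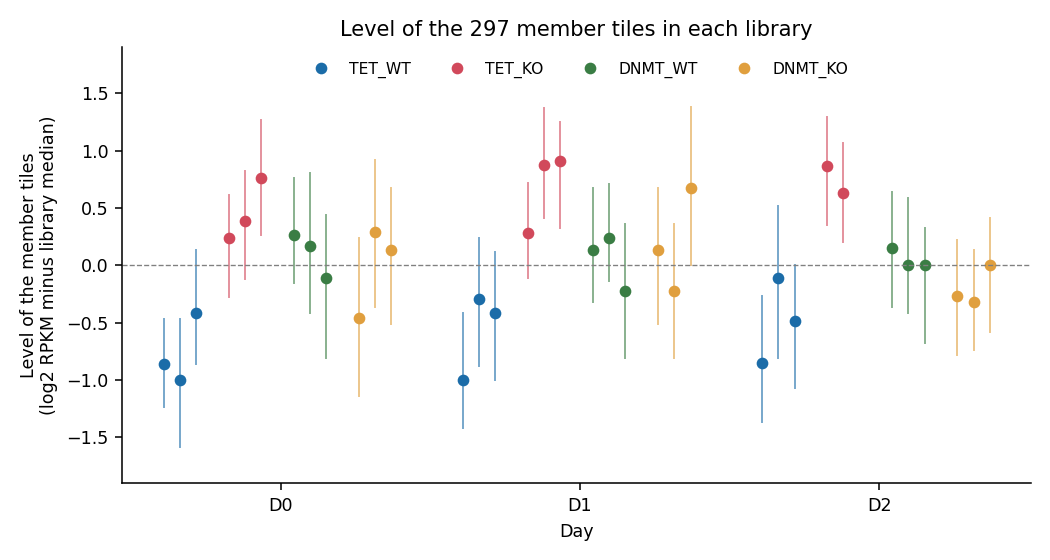
Level of the 297 tiles (log2 RPKM minus the library's median over tested tiles) in each of the 35 libraries by day. Points are medians over the tiles and bars the interquartile range; every TET_WT point lies below 0, every TET_KO point above 0, and the DNMT points lie on both sides.

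Every TET_KO library exceeded every TET_WT library in 184 of the 297 tiles at D0 (62.0%), where 6.06% of all tested tiles did so. The count was 188 at D1 (63.3%, background 5.46%) and 264 at D2 (88.9%, background 11.1%), and 118 tiles met this on all days (39.7%, background 0.304%). The rule used these values, so nothing is read from the counts. Closest to the threshold, the 5 tiles just inside had a smallest difference of 0.80. The 5 just outside, in Gm40689, near Gm17780, in Celf2, between genes and in Ank2, had 0.80 when rounded and 0.797 or less before rounding.

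The tile with the largest difference kept at all days lay between genes on chromosome 13 (chr13:113724001-113726000), 10.2 kb from the long non-coding RNA gene Gm31276. It held 12, 4 and 3 reads in the TET_WT libraries at D0, 11, 1 and 1 at D1 and 1, 2 and 3 at D2. In TET_KO it held 22, 21 and 16 reads at D0, 39, 35 and 32 at D1 and 44 and 47 at D2. The knockout minus parent differences were 2.80, 4.20 and 4.88 in level, and the groups did not overlap on any day. Both DNMT lines had this tile open as well, with levels of 1.00, 0.58 and 1.32 in DNMT_WT and 0.86, 0.74 and 0.49 in DNMT_KO at D0. At D2 they were 0.92, 1.00 and 1.75 in DNMT_WT and 1.37, 1.43 and 1.08 in DNMT_KO. The level was thus low in the TET_WT line alone among the 4 lines. A DNMT_WT mean above that of TET_WT was common in the set, in 264 of the 297 tiles at D0 (88.9%, against 48.7% of tested tiles). In the 172 tiles chosen in the opposite direction the share was 17.4%. Choosing tiles low or high in TET_WT favours such shares, so nothing is read from them.

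The next tile, on chromosome 13 (chr13:19524001-19526000) in the pseudogene Gm18363, was the centre of a run of 4 adjacent tiles that all met the rule. Its TET_WT levels were -1.32, -3.17 and -0.86 at D0 and -2.17, -1.49 and -1.58 at D2, and its TET_KO levels 0.50, 0.39 and 0.14 at D0 and 1.93 and 1.00 at D2. The TET differences were 2.13, 2.62 and 3.21. DNMT_WT had -2.32, 0.46 and -0.22 at D0 and 1.35, 0.81 and 1.64 at D2, and DNMT_KO had -0.29, -0.58 and -1.32 at D0 and 1.22, 0.68 and 0.64 at D2. Here the DNMT lines overlapped each other on both days and lay within or beside the TET_KO values at D2, while TET_WT stayed low.

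In the immunoglobulin heavy chain V segment Ighv2-3 (chr12:113610001-113612000), whose locus is rearranged in B cells, the levels were -1.62, -3.17 and -1.15 in TET_WT and 0.50, 0.11 and 0.38 in TET_KO at D0. At D2 they were -2.17, -1.0 and -1.22 against 0.35 and 0.58. DNMT_WT gave 0.64, -0.19 and -0.19 at D2 and DNMT_KO -1.0, -1.74 and 0.29. Those DNMT groups overlapped. Tiles at Ighv7-1, Ighv2-5, Igh, Ighv2-6 and Ighv5-2 also met the rule, with TET differences between 0.80 and 1.95.

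Most open of the 10 leading tiles was the start of the long non-coding RNA Gm8493 (chr5:109552001-109554000), with 80, 37 and 56 reads in TET_WT and 103, 107 and 144 in TET_KO at D0. At D2 it held 39, 62 and 71 reads in TET_WT and 139 and 221 in TET_KO. It belonged to a run of 4 adjacent tiles reaching into Crlf2, a subunit of the TSLP receptor. Its TET differences were 1.99, 1.79 and 1.89, and its DNMT_KO minus DNMT_WT differences -0.20, -0.01 and -0.06 (SE 0.37).

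In Gm34581, a long non-coding RNA gene on chromosome 12 (chr12:50982001-50984000), the TET differences were 2.39, 1.61 and 2.32. The D0 levels of -2.51, -3.17 and -2.74 in TET_WT lay under all DNMT_WT levels (-0.15, -0.19 and 1.28) and all DNMT_KO levels (0.45, 0.00 and 0.58). TET_KO at D0 stood at -0.39, -0.12 and -0.74, also under most DNMT libraries. Near Gm45968 (chr16:55378001-55380000) the differences were 1.62, 1.83 and 2.01, and DNMT_WT means of -0.58, -0.59 and -0.62 lay between the TET lines.

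Near the olfactory receptor gene Olfr820 (chr10:130004001-130006000) the TET differences were 1.60, 1.62 and 1.92, and near the pseudogene Gm11871 (chr4:20972001-20974000) 1.58, 1.52 and 1.63. In DNMT_WT these tiles had mean levels of 1.74 ± 0.44 and 1.67 ± 0.20 at D0 and of 0.55 ± 0.39 and 0.12 ± 0.69 at D2 (n = 3 each), and limma gave adjusted p = 0.191 near Olfr820 and 0.0493 near Gm11871, a call kept in 1 of 6 fits with 1 library left out. In DNMT_KO both were called lower at D2, by -1.72 near Olfr820 (adjusted p = 0.0278, kept in 1 of 6 such fits) and by -2.23 near Gm11871 (adjusted p = 0.00208, kept in 6 of 6). In Negr1, a gene for a neuronal adhesion molecule (chr3:157012001-157014000), the differences were 1.67, 1.58 and 1.74. At Negr1 the D0 levels were -1.62, -2.58 and -0.15 in TET_WT and -0.50, 0.39 and 0.77 in TET_KO, which overlapped through 1 TET_WT library. A tile on chromosome 7 with no gene within 50 kb (chr7:40362001-40364000) had 2.43, 2.60 and 1.54.

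**Figure D2:**
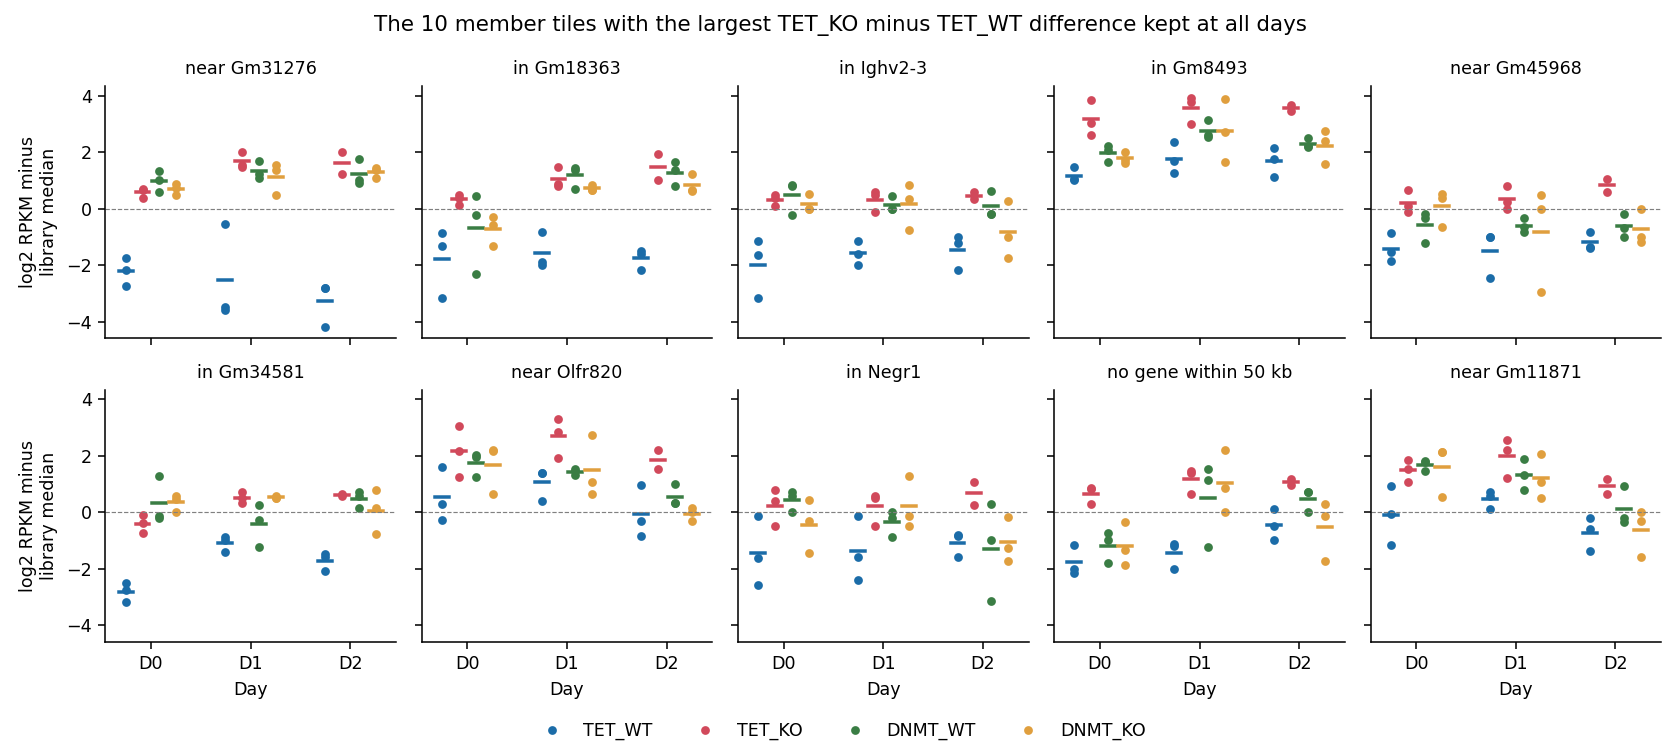
Level (log2 RPKM minus library median) by day of the 10 tiles with the largest TET_KO minus TET_WT difference kept at all days, 1 panel a tile; points are libraries and short bars group means. TET_WT is the lowest mean in most panels, and at the tile near Gm31276 all other lines lie above it.

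DNMT_WT is the other wild-type line of the study. Over the tiles, the median of the difference DNMT_WT minus TET_WT was 0.78 at D0, 0.63 at D1 and 0.46 at D2. The median of the difference DNMT_WT minus TET_KO was -0.36, -0.67 and -0.73. DNMT_WT was nearer to TET_KO than to TET_WT in 182 tiles at D0 (61.3%), 148 at D1 (49.8%) and 131 at D2 (44.1%). Over all tested tiles these shares were 48.5%, 49.9% and 46.6%. DNMT_WT was nearer to TET_KO on all days in 77 tiles and nearer to TET_WT on all days in 64. The TET values in these comparisons chose the tiles, and the DNMT and TET lines are different lines, so they were not tested.

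Loss of the DNMT enzymes could be tested on the 297 tiles, since no DNMT difference had a part in choosing them. No tile was called higher or lower in DNMT_KO than in DNMT_WT at any day (limma, Benjamini-Hochberg adjusted p under 0.05 over all tested tiles). Over all tested tiles, 0.0% were called higher and 0.0% lower at D0, 0.0419% and 0.157% at D1, and 0.00199% and 0.0% at D2. At an unadjusted p under 0.05, 5 of the 297 were higher at D0 (1.68%, against 2.44% of tested tiles) and 8 lower (2.69% against 3.12%). At D1 there were 16 (5.39% against 5.18%) and 6 (2.02% against 6.9%), and at D2 7 (2.36% against 3.13%) and 38 (12.8% against 3.7%). Of these 6 shares, that of lower tiles at D2 was well above the share of tested tiles, and the others were near or below it. A limma-voom fit on recovered reads also called 0 tiles. The lowest adjusted p among the tiles was 0.478 at D0, 0.152 at D1 and 0.271 at D2. The median SE of a difference was 0.50, and in data simulated for the D0 comparison the fit recovered 2% of changes of 1 and 37% of changes of 2 on the log2 scale. In a single tile, differences of the size seen without TET were thus mostly not detectable at this depth.

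The median DNMT_KO minus DNMT_WT difference over the tiles was -0.08 at D0, 0.10 at D1 and -0.33 at D2. Over all tested tiles it was -0.03, -0.01 and -0.02. At D2 the level of 52 of the 297 tiles was lower in every DNMT_KO library than in every DNMT_WT library (17.5%, background 6.62%), and that of 8 was higher throughout (background 5.29%). At D0 these counts were 21 (background 5.25%) and 8 (background 4.57%), and at D1 they were 5 (background 4.98%) and 16 (background 4.87%). The D2 median was -0.32 in the 169 tiles with a mean under 0 and -0.36 in the 128 above it, where tested tiles of like mean gave 0.03 and -0.06. The medians at D0 and D1 took either sign as single libraries were left out (-0.26 to 0.11 and -0.19 to 0.35). That at D2 stayed between -0.41 and -0.23.

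**Figure D3:**
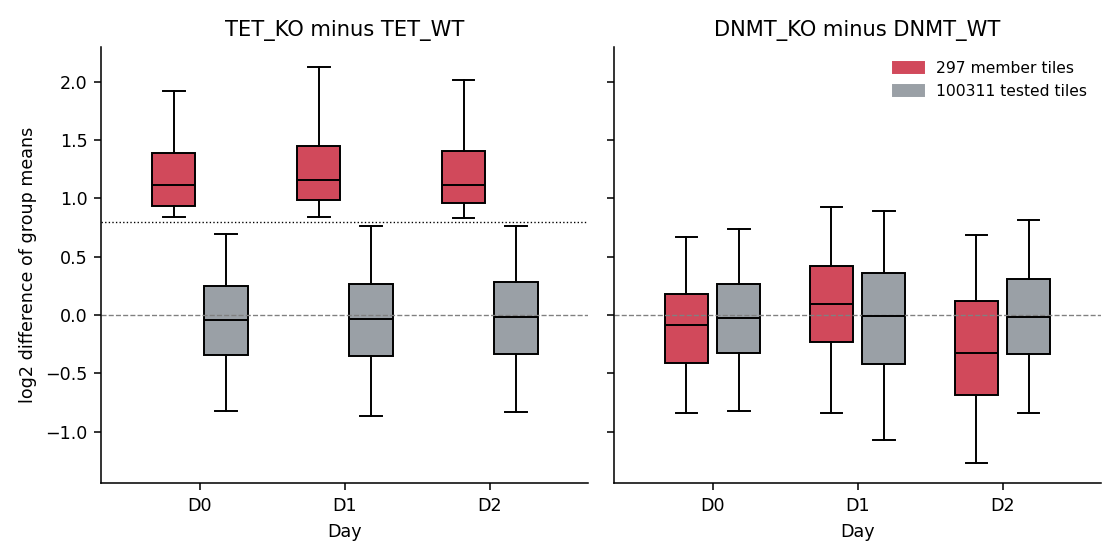
Log2 difference of group means, knockout minus parent, by day for the TET lines (left) and the DNMT lines (right), over the 297 tiles and over 100311 tested tiles; boxes are quartiles with the median, whiskers the outer 5% on each side. The dotted line at 0.8 is the rule; in the DNMT lines the boxes of the tiles overlap those of all tested tiles, with medians of -0.33 and -0.02 at D2.

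When the same rule was applied to the DNMT lines, 24 tested tiles were at least 0.8 higher in DNMT_KO on all days (0.0239%) and 43 at least 0.8 lower (0.0429%). None of the 297 tiles was among the first, and 1 was among the second, which is 0.337% of the 297 and 2.33% of the 43. That tile lay 7.21 kb from the non-coding RNA gene Gm32918 (chr15:74186001-74188000). Its DNMT_KO minus DNMT_WT differences were -1.01, -0.84 and -0.82 (SE 0.37), and its TET differences 1.66, 1.39 and 1.20. It was thus higher without TET and lower without DNMT in mean level on all days, although limma called none of its DNMT differences (adjusted p = 0.762, 0.346 and 0.688).

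The change from D0 to D2, when cells leave the naive state, was tested in the 2 DNMT lines. In DNMT_WT, 4 of the 297 tiles were called higher at D2 (1.35%, background 0.505%) and 12 lower (4.04%, background 1.73%). In DNMT_KO, 3 were called higher (1.01%, background 0.421%) and 17 lower (5.72%, background 1.89%). Of the lower tiles, 7 were called in both lines, 58.3% of the DNMT_WT and 41.2% of the DNMT_KO list, and 1 of the higher tiles was. No tile was called for a difference between the lines in this change (limma, background 0.0% in each direction), with 6 above (2.02%, against 2.8% of tested tiles) and 12 below (4.04% against 2.52%) at an unadjusted p under 0.05. A limma-voom fit on recovered reads called 0 as well.

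The largest fall in DNMT_WT was in Stxbp5l (chr16:37340001-37342000), whose product restrains vesicle release by binding syntaxin. Its levels were 1.07, 1.64 and 1.00 at D0 and -1.58, -3.15 and -0.42 at D2, a change of -2.96 (SE 0.56, limma adjusted p = 0.000993). In DNMT_KO it fell by 2.11 (limma adjusted p = 0.0276), a call kept in 2 of 6 fits with 1 library left out. In TET_WT the D0 levels of -0.74, -0.36 and 0.00 were followed by -2.58, -1.49 and -1.81 at D2, and TET_KO went from 0.44, 1.69 and 1.14 to 0.45 and -0.07. All 4 lines were thus lower at D2 in mean level, and TET_KO was the highest of them at D2.

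In Rims1, a scaffold protein of the presynaptic release site, the tile chr1:22466001-22468000 had levels of 2.41, 2.25 and 1.28 in DNMT_WT at D0 and -0.58, 0.17 and -1.0 at D2. It fell by 2.45 (SE 0.50, limma adjusted p = 0.00217) in DNMT_WT and by 2.18 (adjusted p = 0.00779) in DNMT_KO. At D2 the TET_WT levels were -2.17, -2.22 and -1.39 and those of TET_KO -0.29 and -0.51. Further falls in DNMT_WT were in Sumf1, the enzyme that activates sulfatases (-2.50, adjusted p = 0.00424), in Gm12374 (-2.22, adjusted p = 0.0142) and near Gm19320 (-1.96, adjusted p = 0.0136). The last of these was also called lower in DNMT_KO (-2.50, adjusted p = 0.00117), as was Gm12374 (-2.67, adjusted p = 0.00248), while Sumf1 at -1.28 was not (adjusted p = 0.256). Of these 5 falls in DNMT_WT, those in Stxbp5l and Rims1 were called with any 1 of the 6 libraries compared left out.

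A tile in Etl4 (chr2:20176001-20178000) and one with no gene within 50 kb (chr3:70150001-70152000), chosen after their values were seen, were called lower in both lines. In the latter, the DNMT_WT levels were 1.93, 1.75 and 0.65 at D0 and -0.17, -0.19 and -1.0 at D2, and those in DNMT_KO 0.45, 1.58 and 1.68 against -0.58, -3.32 and -1.17. This was the largest fall in DNMT_KO among the 297 (by 2.93, limma adjusted p = 0.00051). The TET_WT levels there were -0.80, -0.58 and -0.74 at D0 and -1.17, -1.22 and -2.81 at D2.

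Among the 4 tiles that rose in DNMT_WT, the largest change was 489 bases from Tyr, the gene for tyrosinase of melanin synthesis (chr7:87494001-87496000). Its DNMT_WT libraries held 4, 0 and 6 reads at D0 and 9, 13 and 11 at D2, and the change of 2.29 (limma adjusted p = 0.0471) rested on these few reads. DNMT_KO held 3, 6 and 1 reads at D0 and 8, 1 and 9 at D2 there and gave no call (0.62, adjusted p = 0.765). The others were a tile with no gene within 50 kb (chr4:25092001-25094000, 2.13, adjusted p = 0.0137), the tile in Gm18363 (1.96, adjusted p = 0.0169) and one near Gm31078 (chr1:192794001-192796000, 1.33, adjusted p = 0.0174). Only the last of these 4 was also called in DNMT_KO (1.45, adjusted p = 0.00845). Each of the 4 lost its call in DNMT_WT when 1 of several single libraries was left out.

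**Figure D4:**
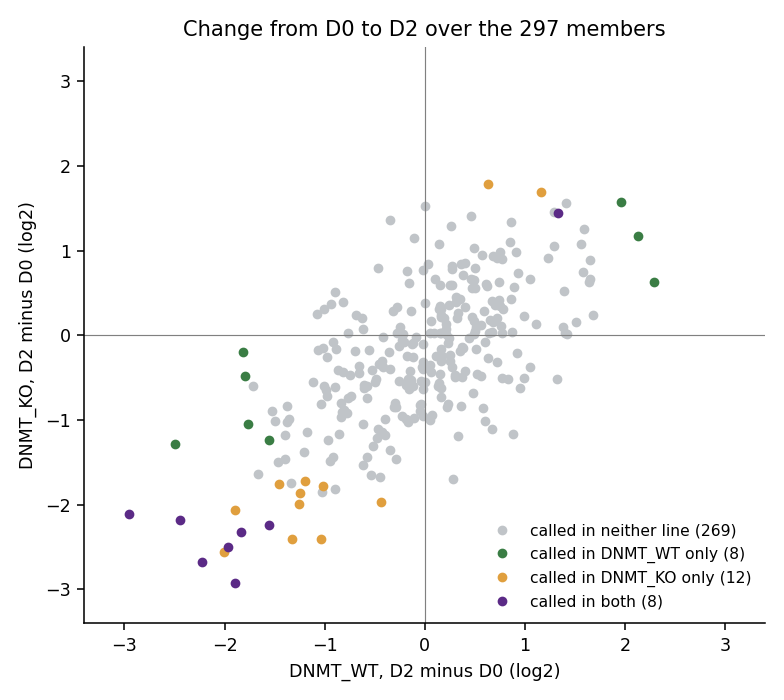
Change in level from D0 to D2 of each of the 297 tiles in DNMT_WT (x axis) and in DNMT_KO (y axis), log2 scale; colours mark tiles called by limma at an adjusted p under 0.05. Tiles called in both lines number 8, of which 7 lie at the lower left.

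The tiles lay farther from the starts of protein-coding genes than tested tiles did. Their median distance to the nearest start of a protein-coding gene was 95.0 kb, against 15.1 kb for all tested tiles and 20.5 kb for the 172 tiles less accessible in TET_KO on all days. Tiles over 200 kb from such a start made up 34.9% of the tiles and 7.92% of those tested, and 1.32% of tested tiles at that distance met the rule. Of the 292 tiles off chromosome 18, which the start table does not hold, 132 lay between genes (45.2% against 26.5% of tested tiles) and 86 inside a protein-coding gene away from its start (29.5% against 52.9%). A further 46 lay inside another kind of gene (15.8% against 7.14%). Of the less accessible tiles, 169 lay off chromosome 18, and 76 of these lay between genes (45.0%). Another 66 lay inside a protein-coding gene away from its start (39.1%) and 18 inside another kind of gene (10.7%). A place between genes was thus not particular to the more accessible tiles. No gene of any kind stood within 50 kb of 48 tiles of the set (16.2%), which held for 1.97% of tested tiles and 2.33% of the 172.

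Tested tiles that did not meet the rule showed a like order at the far end. Over 200 kb from a start, their median TET_KO minus TET_WT difference was 0.13, 0.07 and 0.13 from D0 to D2, and up to 10 kb from one it was -0.11, -0.07 and -0.07. In the DNMT lines the non-members over 200 kb away had -0.03, 0.01 and -0.21, and the 102 tiles of the set there -0.21, 0.09 and -0.49. Other tested tiles within 100 kb of a member, which 251 of the 297 had, showed a median TET difference of 0.33, 0.28 and 0.38. The neighbourhood was above 0 around 84.5%, 84.1% and 90.0% of these 251. The tiles around the 297 were thus also higher in TET_KO in most places, by less than the members themselves, and they come from the same libraries. Of all tested tiles taken singly, 46.4%, 46.9% and 48.2% had a TET difference above 0. Neighbourhoods of other tested tiles, at like distance from a start or on the same chromosomes, were not computed. Whether these shares are particular to the members was thus not tested.

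**Figure D5:**
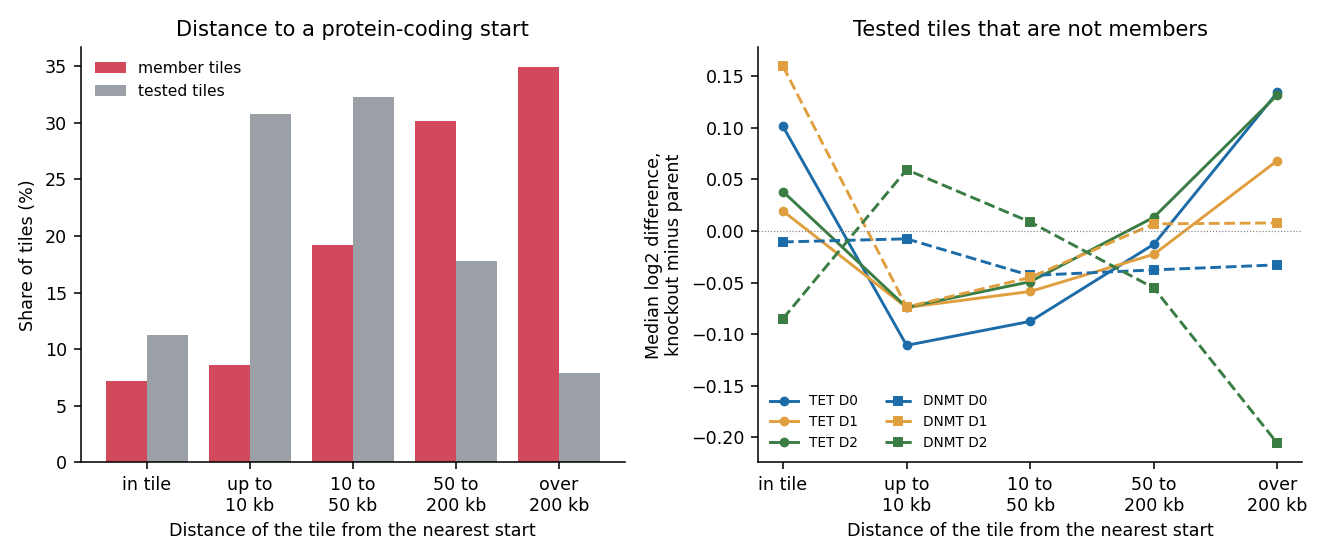
Left, share of the 297 tiles (off chromosome 18) and of tested tiles by distance to the nearest start of a protein-coding gene. Right, median knockout minus parent difference (log2) of tested tiles that did not meet the rule, by the same distance, for TET (circles) and DNMT (squares) lines by day; over 200 kb away the TET medians are above 0 and the DNMT median at D2 is -0.21.

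Where a tile lay in a protein-coding gene, the gene was often long. The 110 such tiles fell in 98 genes, and the gene around them had a median length of 159 kb, against 39.9 kb for tested tiles in protein-coding genes. Genes of 500 kb or more held 25 of the 110 (22.7% against 2.95%). Examples of long genes, chosen after their values were seen, are those of the adhesion molecules Lsamp and Nrxn3, the axon guidance receptor Robo2, the glutamate receptor Grm5 and the receptor tyrosine kinase Erbb4. Their TET differences from D0 to D2 were 1.32, 0.87 and 0.96 in Lsamp, 0.91, 0.91 and 0.96 in Nrxn3, and 1.05, 0.93 and 1.21 in Robo2. In Grm5 they were 1.16, 1.31 and 1.71, and in Erbb4 1.62, 0.96 and 2.4. No tile in these 5 genes was called in DNMT_KO, where Robo2 had the only positive D2 difference of the 5 (0.10). Over the 297 tiles, 30.6% had a positive DNMT difference at D2.

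In 7 protein-coding genes 2 or more tiles met the rule, 19 tiles in all. Lhfp had 4, of which 3 were adjacent (chr3:53108001-53114000), and Rims1, Vav1 and Bmpr1b had 3 each. Vav1 is a signalling factor of blood cells, and Bmpr1b a receptor for bone morphogenetic proteins. At Vav1 the TET differences were 1.79, 2.44 and 1.44 at chr17:57310001-57312000 and 1.10, 1.21 and 1.18 at chr17:57284001-57286000. All 3 tiles of Bmpr1b were lower in mean level in DNMT_KO at D2, with differences of -1.47, -0.88 and -0.73, none of them called. A lower level was the common case, since this difference was above 0 in 30.6% of the 297 tiles (48.7% of tested tiles). Most tiles stood alone, since 272 of 282 runs of adjacent tiles held 1 tile.

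Some gene families were counted beside the tiles, a choice made after the values were seen. Segments of the immunoglobulin heavy chain, which form a single locus, lay within 50 kb of 8 tiles (2.69% against 0.0997% of tested tiles), vomeronasal receptor genes of 8 (2.69% against 0.460%) and olfactory receptor genes of 5 (1.68% against 0.666%). The 172 less accessible tiles had 0, 6 (3.49%) and 1 (0.581%) such neighbours, so vomeronasal genes were not particular to the more accessible tiles. Zinc finger genes named Zfp lay near 1 (0.337% against 3.58%), and microRNA genes near 8 (2.69% against 10.6%). Such families hold near-identical copies. The treatment of reads that match several copies is not stated in the labels or processing notes, so values at these tiles are uncertain.

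Of 278 genes in 18 lists, 237 had a tested tile within 50 kb, and 3 of the 297 tiles lay that near to one (1.01% against 3.79% of tested tiles). No tile lay near a gene of the naive, core or formative pluripotency, haematopoietic, neuroectoderm or Hox lists. Tested tiles near these lists were also few (0.393%, 0.240%, 0.262%, 0.287%, 0.163% and 0.154%), so a count of 0 among 297 is near the background for each. The 3 were the Mael start, a tile in Usp29 within reach of the imprinted gene Peg3, and a tile 28.8 kb from Ascl2, an imprinted transcription factor of the trophoblast. In the list of methylation-dependent germline genes, 20 had a tested tile within 50 kb. The Mael start was the only member near this list (0.337% against 0.198% of tested tiles), so no germline theme is read from it.

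In Usp29, a deubiquitinase gene expressed from the paternal copy (chr7:6770001-6772000), the D0 levels were -0.86, -1.17 and -0.62 in TET_WT and 1.04, 0.47 and 1.20 in TET_KO, with no overlap. DNMT_WT gave 0.14, -1.42 and -1.0 and DNMT_KO -2.46, -0.58 and -1.74 at D0. Both DNMT lines thus lay nearer to TET_WT than to TET_KO there, unlike at the Mael start. At Ascl2 (chr7:142936001-142938000) the D2 levels were -1.36, -1.22 and -1.58 in TET_WT, -0.14 and -0.32 in TET_KO, 0.00, -0.19 and 0.00 in DNMT_WT and -0.26, -0.51 and 0.00 in DNMT_KO. TET_WT alone was low.

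The tiles were unevenly spread over chromosomes. The highest rates were on chromosome 3 with 40 (8.25 per 1000 tested tiles), chromosome 13 with 26 (7.37) and chromosome 12 with 20 (4.98). Chromosome 1 held 38 (3.41 per 1000), which is 12.8% of the 297 beside 11.1% of tested tiles. Chromosomes 11, 19 and 6 held 3, 1 and 5 (0.322, 0.316 and 0.802 per 1000). Over all tested tiles of a chromosome, the median TET difference at D0 was 0.09 on chromosome 3, 0.07 on chromosome 13, -0.20 on chromosome 11 and -0.26 on chromosome 6, where 47 of the 172 less accessible tiles lay. Centring each chromosome on its own median gave 318 tiles, of which 270 were among the 297. Differences in chromosome copy number between the lines were not tested.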

How the data were processed

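Libraries were amplified with 13 PCR cycles, per the labels' protocols. The submitters' processing notes name Trim Galore 0.6.5, cutadapt 2.3, Bowtie2 2.4.1 and the build GRCm38. A shift of reads for the transposase and the handling of duplicates and masked regions are not given in the sources used here. For each 2 kb tile and each of 35 libraries, the deposited value is log2 RPKM, per the file headers, with an empty tile at 0.9 read. Values were whole multiples of 1 read in 99.999% of tiles or more in each library (tolerance 0.01 read), so reads were recovered, at 5 to 40 for the median tested tile of a library. Their number limits precision.

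Values were centred on each library's median over tested tiles. Contrasts were fitted with limma 3.58.1 (trend, R 4.3.3) on 12 group means (23 residual degrees of freedom), 2-sided, with Benjamini-Hochberg adjustment over 100311 tiles in each of 6 contrasts, and called at an adjusted p under 0.05. The fit was tested on simulated data. Alternatives changed the centring, filter, scale, thresholds, groups fitted, tool and replicate block, and left out each library. Genes came from RefSeq GRCm38.p6, and a gene is named where the tile lies in it or else is the nearest within 50 kb.

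The tiles and gene lists were chosen with earlier results of these data known. Named tiles were the 10 with the largest smallest difference of the 3 days (1 per run), up to 5 called each way per contrast, those near list genes, the 5 on each side of the threshold, and the longest runs.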

Additional observations from a re-analysis of the deposited data

How the results depend on the processing

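The number of tiles that met the rule depended on the processing. It was 474 after quantile normalisation (273 shared with the 297), 215 on values as deposited, 123 with the filter at 0, 40 on log2(RPKM + 0.5), 881 at a threshold of 0.6 and 104 at 1.0, and 216 to 425 with 1 TET library left out. At low values the deposited scale has a floor that moves with depth, and a larger pseudocount shrinks such differences by construction.

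The count of 0 calls in DNMT_KO against DNMT_WT held at D0 and D2 in all settings other than leaving out libraries. At D1 it was 1 higher at the member threshold of 0.6. With 1 library left out, 0 to 1 were higher and 0 to 3 lower at D1 (3 without DNMT_KO replicate 3, the library with the most mitochondrial reads), and 0 to 1 lower at D2 (1 without DNMT_KO replicate 2). The D2 median stayed negative in all settings run (-0.41 to -0.21). The D0 median was -0.08, but 0.03 on deposited values, where that of all tested tiles was 0.09, and 0.10 with no filter, where that of all tiles was 0.11. With no filter, the medians of all tiles at D1 and D2 were 0.23 and -0.18.

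For D2 against D0 in DNMT_WT, 4 higher became 7 with quantile normalisation, 2 with no filter, 1 at a member threshold of 1.0, 11 at 0.6 and 8 with only the groups compared in the fit, and 12 lower became 35 at 0.6 and 21 with only those groups. In DNMT_KO, 3 higher became 5 with quantile normalisation, 1 on deposited values, 1 with the filter at 0, 0 with no filter, 0 at 1.0 and 7 at 0.6. There, 17 lower became 27 with quantile normalisation, 27 on deposited values, 31 with no filter, 7 at 1.0, 43 at 0.6 and 26 with only those groups. Without 1 library, DNMT_WT gave 0 to 4 higher (0 without D2 replicate 1, 2 without D0 replicate 1 or D2 replicate 2) and 4 to 10 lower (4 without D0 replicate 1 or 2, 7 without D2 replicate 2). DNMT_KO gave 1 to 2 higher (1 without D2 replicate 3) and 7 to 27 lower (27, 7 and 11 without D0 replicates 1, 2 and 3). The cause was not tested.

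Replicate numbers were not taken to pair the samples, since same-numbered DNMT_KO and DNMT_WT libraries correlated at -0.053 to 0.017 in their deviations, and TET_KO and TET_WT libraries at -0.104 to 0.223. A replicate block gave 5 higher and 13 lower in DNMT_WT and 4 and 20 in DNMT_KO for D2 against D0, and 0 for DNMT_KO against DNMT_WT.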
